A study of Rattus norvegicus with 352 samples.

Results

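Collagens are the main structural proteins of the extracellular matrix, each built from 3 chains wound into a triple helix. The genes described here are all those in the brain expression table whose symbol is Col, a type number, the letter a and a chain number, 44 of the 38354 genes listed. Their polyA RNA was sequenced from whole hemispheres of the brains of heterogeneous stock rats, an outbred stock founded by crossing inbred strains. All animals were naive and untreated, so there is a single group and no control group, and all labelled samples but 10 were analysed. The sources used here give no age or sex, each library is taken as 1 rat, and nothing says which rats were related. P-values therefore measure the spread between these libraries, and every mean ± SD is over all of them unless a block is named.

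In the brain, fibrillar collagens are known mainly from the meninges and the sheaths of large vessels, where fibroblasts secrete them as soluble procollagens that are trimmed and cross-linked into fibrils. Basement membrane collagens form sheets under endothelial cells, around pericytes and at the pial surface. Other families coat fibrils, form beaded filaments or span the cell membrane, and several of these are made by neurons. By these families, 11 of the genes were fibrillar, 8 belonged to basement membranes (types IV, XV and XVIII) and 25 were of other types. Col21a1 is not analysed here.

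The libraries held between 5418230 and 42980793 estimated counts, with a median of 21881769, and each was scaled to a total of 1000000, which gives CPM. A level below is log2(CPM + 1), with no correction for transcript length, so levels are compared between libraries and not between genes. Brain markers matched the tissue label: general neuron markers summed to between 7318 and 8189 CPM. Of the markers of tissues around the brain, 10 cartilage and bone genes summed to 35.6 to 59.1 CPM and 7 skeletal muscle genes to 10.9 to 30.3 CPM. Sox9 is in the cartilage and bone list and also in the list of astrocyte markers, so that sum need not come from around the brain. The 8 pituitary and pineal markers summed to 12.96 CPM in the median library but ran from 3.24 to 1574 CPM, and the 8 red blood cell markers ran from 88.1 to 1181 CPM. One library, brain 4, stood apart in its correlation with the median profile, and another, brain 230, had by far the lowest fibroblast marker score, 5.57 SD below the mean (score -5.57). Results that changed without either library are given with and without it.

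Promoter sequence was at hand for 35 of the 44 collagen genes, as windows from 250 bases before to 50 bases after a RefSeq start site on the rat assembly GRCr8. The 6 printed here are those of genes that moved together in the results below. Col1a2 and Col8a2 are collagens that rose with meningeal fibroblast markers. Col5a1 and Col11a2 are fibrillar chains that ran in parallel with each other and, before any adjustment, opposite to Col1a2. Col4a1 and Col4a2 are the chains of the main vascular basement membrane, transcribed away from each other from start sites 77 bp apart. Capitals mark 3 motifs, each searched on both strands. The GC box has the letters GGGCGG. The CCAAT box has the letters of its name. The TATA box has the letters TATAAA. Overlapping matches were each counted. The windows lie at chr4:33518307-33518606 (+) for Col1a2, chr5:143870519-143870818 (+) for Col8a2 and chr3:31606630-31606929 (+) for Col5a1. The others lie at chr20:4817599-4817898 (-) for Col11a2, chr16:84885347-84885646 (+) for Col4a1 and chr16:84885471-84885770 (-) for Col4a2.
Col1a2: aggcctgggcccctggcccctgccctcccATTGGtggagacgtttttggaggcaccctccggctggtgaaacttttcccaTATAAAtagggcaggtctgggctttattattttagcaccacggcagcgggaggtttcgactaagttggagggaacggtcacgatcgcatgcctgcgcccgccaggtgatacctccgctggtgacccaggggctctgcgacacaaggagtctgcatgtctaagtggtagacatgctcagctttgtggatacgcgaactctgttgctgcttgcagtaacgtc
Col8a2: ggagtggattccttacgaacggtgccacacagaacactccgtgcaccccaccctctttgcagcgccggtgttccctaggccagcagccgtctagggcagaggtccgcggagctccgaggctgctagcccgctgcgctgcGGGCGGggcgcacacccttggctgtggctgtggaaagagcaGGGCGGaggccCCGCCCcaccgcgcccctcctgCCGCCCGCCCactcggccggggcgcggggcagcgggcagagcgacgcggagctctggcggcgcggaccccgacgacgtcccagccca
Col5a1: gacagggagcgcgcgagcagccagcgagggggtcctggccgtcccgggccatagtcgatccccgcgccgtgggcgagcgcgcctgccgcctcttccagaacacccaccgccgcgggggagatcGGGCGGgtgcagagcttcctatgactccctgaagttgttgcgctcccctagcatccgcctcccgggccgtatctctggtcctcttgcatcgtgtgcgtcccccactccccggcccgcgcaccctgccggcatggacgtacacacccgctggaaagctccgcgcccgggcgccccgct
Col11a2: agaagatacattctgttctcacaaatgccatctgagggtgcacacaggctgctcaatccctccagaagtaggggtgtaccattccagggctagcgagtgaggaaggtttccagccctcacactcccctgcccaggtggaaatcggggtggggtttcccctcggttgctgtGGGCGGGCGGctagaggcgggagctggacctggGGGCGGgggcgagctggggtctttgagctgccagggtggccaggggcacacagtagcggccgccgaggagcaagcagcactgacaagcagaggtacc
Col4a1: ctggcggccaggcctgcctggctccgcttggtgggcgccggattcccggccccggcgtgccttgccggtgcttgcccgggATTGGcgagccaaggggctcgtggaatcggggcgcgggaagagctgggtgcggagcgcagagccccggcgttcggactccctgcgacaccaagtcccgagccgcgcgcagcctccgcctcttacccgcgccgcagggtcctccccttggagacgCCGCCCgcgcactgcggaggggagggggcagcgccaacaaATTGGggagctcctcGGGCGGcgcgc
Col4a2: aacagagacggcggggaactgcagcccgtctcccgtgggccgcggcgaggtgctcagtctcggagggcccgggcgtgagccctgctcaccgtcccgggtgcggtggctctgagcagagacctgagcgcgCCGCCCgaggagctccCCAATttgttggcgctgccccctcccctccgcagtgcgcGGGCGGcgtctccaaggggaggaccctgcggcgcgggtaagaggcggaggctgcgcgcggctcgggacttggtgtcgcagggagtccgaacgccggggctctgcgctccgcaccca

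Of these 6 windows, the one of Col1a2 was the only one that held a TATA box, and it held a CCAAT box but no GC box. The windows of Col8a2, Col5a1 and Col11a2 held 5, 1 and 3 GC boxes and neither of the other motifs. The windows of Col4a1 and Col4a2 overlap, read on opposite strands, and each held 2 GC boxes. Over the 35 collagen promoters, a GC box was found in 54.3%, against 33.1% of all 33469 promoters in the table. A CCAAT box was found in 31.4% of the collagen promoters, against 37.5% of all. A TATA box was found in 11.4% of the collagen promoters, against 14.2% of all. A match describes the letters of the window and is not a binding site, and no test was made of these shares.

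Of the 44 collagen genes, 36 reached a mean level of at least 1 and were tested: all 11 fibrillar genes, 7 of 8 basement membrane genes and 18 of 25 others. Summed over all 44 genes, collagens took between 597 and 1110 CPM of a library (median 828). The fibrillar genes took 238.9 to 516.5 CPM (median 360), the basement membrane genes 106.9 to 195.1 CPM (median 151.9) and the other types 233.7 to 419.8 CPM (median 313.3). All 3 families were found in every library.

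**Figure D1:**
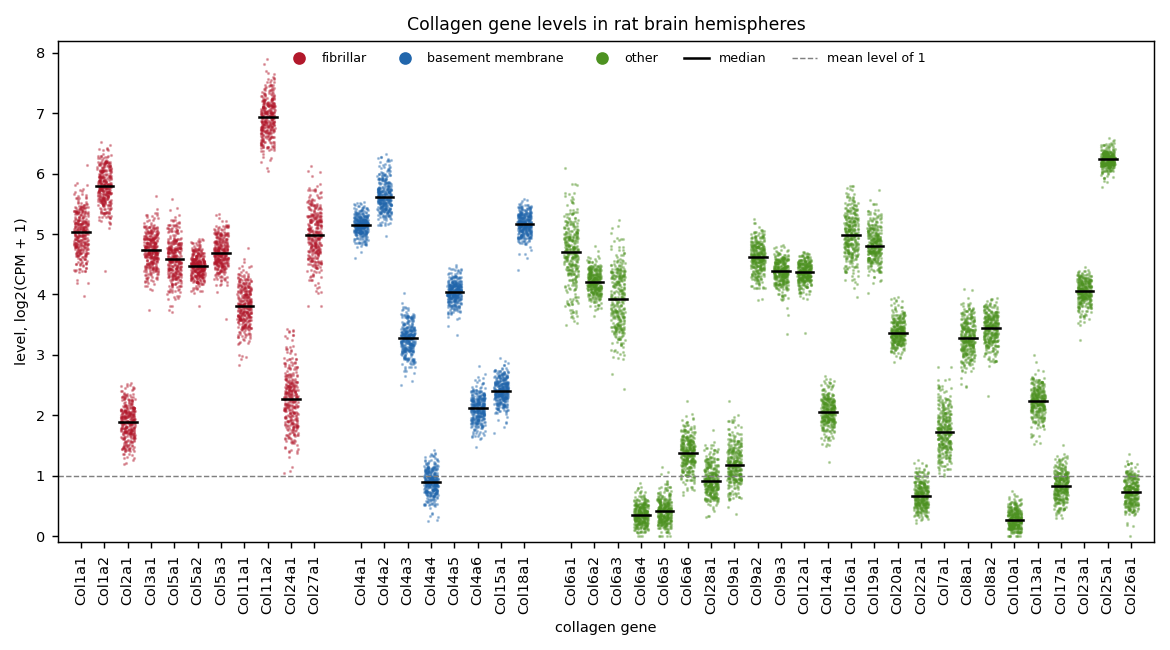
Level of each collagen gene, log2(CPM + 1), in all hemispheres, grouped as fibrillar, basement membrane and other; each point is a library, the black line is the median, and the dashed line is the mean level of 1 needed for testing. Col11a2 reached a median of 6.93, while 8 genes stayed under a mean level of 1.

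Among the fibrillar genes, the chains of the interstitial fibrils were detected in every library. Col1a1 and Col1a2 encode the chains of type I collagen, the main fibril former of connective tissue. Col1a1 had a level of 3.98 in the lowest library, 5.03 in the median library and 6.15 in the highest (mean 5.02 ± 0.33, SD). Col1a2 had levels of 4.39, 5.79 and 6.53 in the lowest, median and highest library (mean 5.80 ± 0.29). Col3a1, the single chain of type III collagen of pliable tissues and vessel walls, had levels of 3.74, 4.73 and 5.64 (mean 4.74 ± 0.27). The lowest library was brain 230 and the highest brain 2 for all 3 of these genes.

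The chains of types V and XI nucleate fibrils and set their diameter, and can assemble with each other. Col5a1 had levels of 3.71, 4.59 and 5.58 in the lowest, median and highest library (mean 4.60 ± 0.32), Col5a2 of 3.81, 4.47 and 4.92 (4.47 ± 0.18) and Col5a3 of 3.59, 4.68 and 5.34 (4.69 ± 0.24). Col11a1 had levels of 2.83, 3.80 and 4.77 (3.81 ± 0.31), and Col11a2 had 6.05, 6.93 and 7.90 (6.93 ± 0.31). Brain 89 was the lowest library for Col5a1 and Col11a1, and brain 4 the highest for Col5a3, Col11a1 and Col11a2, so the extremes were not those of the type I and III chains. Col27a1, a fibrillar chain known from cartilage, had levels of 3.80, 4.98 and 6.12 (4.99 ± 0.40). Col24a1 had levels of 1.04, 2.26 and 3.43 (2.25 ± 0.45) and Col2a1, the cartilage fibril chain, of 1.19, 1.89 and 2.53 (1.89 ± 0.27).

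In basement membranes, Col4a1 and Col4a2 form the network under nearly all vessels. Col4a1 had levels of 4.60, 5.15 and 5.53 in the lowest, median and highest library (mean 5.15 ± 0.15, SD), and Col4a2 of 4.97, 5.61 and 6.32 (5.63 ± 0.24). Col18a1, whose C-terminal end is released as endostatin, had levels of 4.40, 5.16 and 5.57 (5.16 ± 0.17), the lowest of them in brain 4. The range of Col4a2 was wider than that of its partner Col4a1. Col4a3 had levels of 2.50, 3.27 and 4.03 (3.26 ± 0.24), Col4a5 of 3.32, 4.05 and 4.48 (4.04 ± 0.17) and Col4a6 of 1.47, 2.11 and 2.81 (2.11 ± 0.21). These 3 encode chains of the specialised networks known from kidney and epithelia. Col15a1 had levels of 1.71, 2.41 and 2.94 (2.40 ± 0.19). Col4a4 averaged 0.89 and was not tested, although it was above 0 in every library.

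Of the remaining types, type VI collagen forms beaded filaments next to basement membranes from the chains of Col6a1, Col6a2 and usually Col6a3. Col6a1 had levels of 3.49, 4.70 and 6.10 in the lowest, median and highest library (mean 4.68 ± 0.46, SD), Col6a2 of 3.64, 4.20 and 4.81 (4.21 ± 0.19) and Col6a3 of 2.44, 3.93 and 5.23 (3.92 ± 0.47). Col6a1 and Col6a3 thus ranged widely and Col6a2 did not. Col6a6, an alternative to the Col6a3 chain, averaged 1.37 ± 0.26 and ranged from 0.68 to 2.23.

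The fibril-associated collagens sit on the surface of fibrils. Col16a1 had levels of 3.96, 4.98 and 5.80 in the lowest, median and highest library (mean 4.99 ± 0.34), and Col19a1 of 4.02, 4.81 and 5.73 (4.83 ± 0.26). Col19a1 is known in mouse as a product of interneurons that acts in synapse formation. The type IX chains, partners of type II fibrils in cartilage, averaged 4.61 ± 0.23 for Col9a2, 4.37 ± 0.19 for Col9a3 and 1.19 ± 0.29 for Col9a1. Col12a1 averaged 4.37 ± 0.16, Col14a1 2.06 ± 0.22 and Col20a1 3.38 ± 0.19.

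The membrane-spanning collagens and the network formers complete the set. Col25a1, a neuronal membrane collagen whose shed part is found in amyloid plaques, had levels of 5.78, 6.24 and 6.59 (6.23 ± 0.12), the smallest SD of any tested collagen. Col23a1 averaged 4.04 ± 0.18 and Col13a1 2.23 ± 0.22. Col8a1 and Col8a2, whose chains make up a hexagonal lattice known from the cornea, averaged 3.29 ± 0.28 and 3.43 ± 0.24. Col7a1, the anchoring fibril chain of skin, had a level of 1.73 in the median library and 2.80 in the highest (1.75 ± 0.34). The 7 genes of other types under a mean level of 1 were Col6a4 (at 0 in 3 libraries), Col6a5 (at 0 in 5), Col10a1 (at 0 in 8), Col26a1 (at 0 in 1), and Col17a1, Col22a1 and Col28a1, which were above 0 in every library.

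How far the collagens differed between hemispheres was set against genes of the same level, as the SD of a gene divided by the SD that a smooth trend over all 16683 tested genes gives at its mean. Collagens varied more than most genes: 14 of 36 had an SD at least 2 times the trend, against 5.12% of all tested genes. The median ratio was 1.55 over the collagens and 0.987 over all tested genes. Most of these were fibrillar genes, of which 9 of 11 were counted (median ratio 2.37), led by Col11a2 (3.74), Col27a1 (3.67), Col1a1 (3.08) and Col1a2 (3.07). Among basement membrane genes it was 1 of 7, Col4a2 at 2.52, and Col4a1 had a ratio of 1.41. Among the other types it was 4 of 18: Col6a1 (3.99), Col6a3 (3.43), Col16a1 (3.12) and Col19a1 (2.34). After the Meg3 and Miat score described below was regressed out, 8 of 36 collagens had such an SD, against 4.44% of all tested genes. The fibrillar genes among them were then 4 of 11 (Col1a1, Col1a2, Col3a1 and Col27a1), and the ratio of Col11a2 was 1.74. None of the 36 fell into separate levels, which 0.803% of all tested genes did.

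The next comparison asked which collagens followed the cells known to make them. Scores were built from markers other than collagens for meningeal and perivascular fibroblasts (19 genes, among them Dcn, Lum and Slc6a13), endothelial and mural cells (19 genes, among them Cldn5, Flt1 and Pdgfrb) and choroid plexus epithelium (13 genes, among them Ttr and Folr1), with Slc13a4 in both the first and the last. Summed marker levels ran from 177.8 to 454.8 CPM for fibroblasts, 327.1 to 511.5 CPM for endothelial and mural cells and 634.1 to 1658 CPM for choroid plexus, so no hemisphere lacked these tissues. One limma fit over the 16683 tested genes held all 3 scores, and each slope below is the difference in level, log2(CPM + 1), per SD of that score with the others held. In bulk tissue, more cells of a type and more RNA per cell cannot be told apart.

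Interstitial collagens rose with the fibroblast score. Of 36 collagens, 12 rose with it, against 6.7% of all tested genes, and 6 fell, against 14.2%. The median slope was -0.01 over the collagens and -0.005 over all tested genes. Col1a2 had a slope of 0.27 ± 0.011 (SE, limma adjusted p = 3.55e-74), Col1a1 of 0.25 ± 0.016 (adjusted p = 7.06e-40) and Col3a1 of 0.23 ± 0.011 (adjusted p = 6.97e-56). These 3 were the only fibrillar genes that rose. Outside the fibrillar family the highest slopes were those of Col6a3 (0.14 ± 0.033) and Col8a2 (0.13 ± 0.012). Next came Col4a6, Col12a1, Col4a5, Col6a2, Col14a1, Col8a1 and Col18a1, with slopes of 0.05 to 0.08.

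The 6 collagens that fell with the fibroblast score were Col27a1 (-0.10), Col24a1 (-0.08), Col11a1 (-0.07), Col2a1 (-0.07), Col11a2 (-0.05) and Col4a3 (-0.04). Of them, 5 are fibrillar genes, so 3 fibrillar genes rose and 5 fell in this fit. Col11a2 (adjusted p = 0.0416) and Col4a3 (adjusted p = 0.0465) lay close to the threshold, and with median ratio scaling of the libraries neither passed (adjusted p = 0.0684 and 0.0536). Without brain 230 the 12 higher calls were the same genes, and the lower calls became 10, with Col9a2, Col9a3, Col16a1 and Col19a1 added to the same 6. With astrocyte, oligodendrocyte and neuron scores and library total in the fit, none of the 36 fell, against 0.977% of all tested genes. With the score of Meg3 and Miat described below, none fell, against 3.03%.

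**Figure D2:**
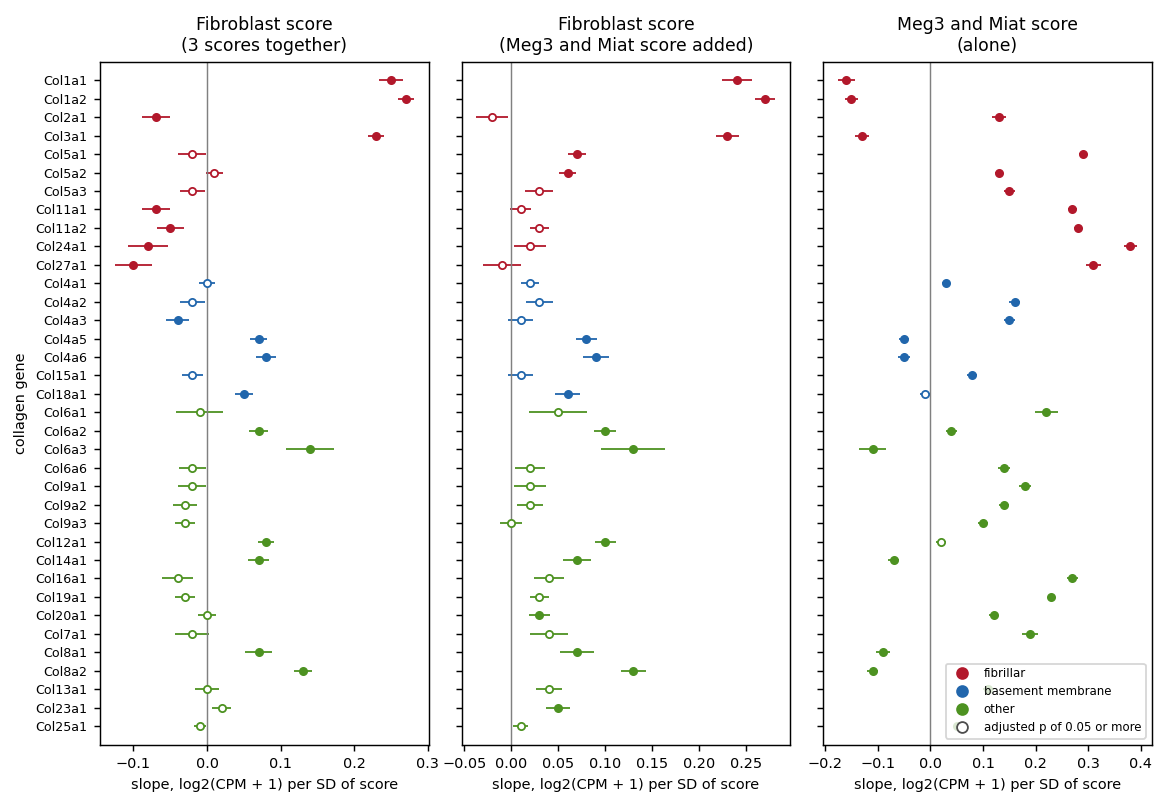
Slope of each tested collagen gene, as change in log2(CPM + 1) per SD of a score, with bars of 1 SE over all libraries: on the fibroblast score with 3 scores in the fit, on the fibroblast score with the Meg3 and Miat score added, and on the Meg3 and Miat score alone. Open points have an adjusted p of 0.05 or more; Col1a1, Col1a2 and Col3a1 lie between 0.23 and 0.27 on the left and between -0.16 and -0.13 on the right.

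Of the chains of the vascular basement membrane, Col4a1 rose with vascular markers and Col4a2 did not pass the test. With the endothelial and mural score, 2 of 36 collagens rose, against 6.95% of all tested genes, and 8 fell, against 3.69%. The risers were Col7a1 (slope 0.07 ± 0.019, SE, limma adjusted p = 0.0057) and Col4a1 (0.04 ± 0.0088, adjusted p = 0.000131). Col4a2, the partner of Col4a1, had a slope of -0.02 ± 0.014 (adjusted p = 0.278). The 8 that fell were Col24a1, Col5a1, Col11a1, Col11a2, Col9a2, Col8a2, Col5a2 and Col23a1, with slopes of -0.08 to -0.04.

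With the choroid plexus score, 3 of 36 collagens rose, against 20.2% of all tested genes, and 22 fell, against 29.4%. The risers were Col8a1 (0.09 ± 0.016), Col8a2 (0.08 ± 0.011) and Col14a1 (0.04 ± 0.013). In this fit, the type VIII genes were the only collagens besides Col14a1 that rose with both the fibroblast and the choroid plexus score. Without the library of lowest fibroblast score, 4 collagens rose with the choroid plexus score, against 19.5% of all tested genes. The number was also 4 with identifier blocks (described below) as a term and with no level minimum. Whether the added gene also rose with the fibroblast score was not tested. Col6a3, which rose with the fibroblast score, lay close to the threshold on the choroid plexus score (0.06 ± 0.03, adjusted p = 0.0608). The lowest slopes were those of Col24a1 (-0.16 ± 0.024), Col16a1, Col19a1 and Col6a1 (each -0.15).

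Many collagens ran with genes outside these scores. By rule, the genes most alike in pattern were looked up for the collagen of highest mean level in each family. For the fibrillar Col11a2 these were Miat (r = 0.90), Tspoap1 (0.89), Meg3 (0.89), Fcho1 (0.89) and Adam11 (0.88), over all libraries. Meg3 and Miat are long noncoding RNAs that stay in the nucleus, with mean levels of 8.71 and 8.08. For Col4a2 they were Mir770, Adam11, Agrn, Meg3 and Tspoap1 (r of 0.63 to 0.66). For Col25a1 they were Lrrc7, Unc80, Grin2a, Grm5 and Cacna1e (0.61 to 0.63), which encode synaptic and ion channel proteins of neurons.

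A score of Meg3 and Miat was therefore added after these values were seen, so its slopes describe the libraries and are not an independent test. On this score alone, 25 of 36 collagens rose, against 43.1% of all tested genes, and 9 fell, against 30.4%. Among fibrillar genes 8 rose and 3 fell. The steepest rises were those of Col24a1 (0.38 ± 0.012), Col27a1 (0.31 ± 0.014), Col5a1 (0.29 ± 0.0075), Col11a2 (0.28 ± 0.0072), Col11a1 (0.27 ± 0.0085) and Col16a1 (0.27 ± 0.011). The fibrillar genes that fell were Col1a1 (-0.16 ± 0.016), Col1a2 (-0.15 ± 0.013) and Col3a1 (-0.13 ± 0.013). The 6 others that fell were Col8a2, Col6a3, Col8a1, Col14a1, Col4a5 and Col4a6, all among the 12 that rose with fibroblast markers. Col12a1 and Col18a1 passed in neither direction.

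The Meg3 and Miat score moved with other properties of the libraries. It correlated with the fibroblast score at r = -0.59 (rho = -0.61), with the choroid plexus score at -0.63 (rho = -0.63), with the neuron score at -0.63 (rho = -0.62) and with the astrocyte score at -0.60 (rho = -0.59), each with the smallest p that 100000 permutations can give, 1e-05. When the 2 libraries with the most extreme score were left out, r was -0.64 to -0.58. All 4 were negative in each of the 7 identifier blocks, groups of at least 8 libraries whose identifiers start alike (r of -0.89 to -0.33). Its correlation with library total was -0.11 (permutation p = 0.0458). The part of these properties in the collagen slopes was not tested.

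With the Meg3 and Miat score held in the fit, the same 12 collagens rose with the fibroblast score and 4 more did, 16 of 36 against 3.94% of all tested genes, and none fell, against 3.03%. The 4 added were Col5a1 (0.07 ± 0.0098), Col5a2 (0.06 ± 0.0092), Col23a1 (0.05 ± 0.013) and Col20a1 (0.03 ± 0.011). The slopes of Col1a2, Col1a1 and Col3a1 were 0.27, 0.24 and 0.23, and their slopes on the Meg3 and Miat score were between -0.02 and 0.00, with adjusted p of 0.201 to 0.794. On the Meg3 and Miat score itself 27 collagens rose, against 39.2%, and none fell, against 21.8%. On the endothelial and mural score 4 of 36 collagens rose, a share close to the 11.4% of all tested genes. They were Col7a1 (0.10), Col4a3 (0.06), Col4a1 (0.05) and Col15a1 (0.05). With that score, 5 fell, against 4.09%. On the choroid plexus score 6 rose, against 9.66%, and 2 fell, against 5.98%.

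Type I and III collagen also ran opposite to some X-linked transcripts. Xist, the RNA that coats the inactive X chromosome and is known from female cells, was among the 3 genes of lowest r for Col1a1, Col1a2 and Col3a1. Xist fell into 2 separate levels, 8.62 to 9.88 in one set of libraries and 0.00 to 4.89 in the other, so no r over all libraries is given with it. Because the sources used here give no sex, no sex was assigned to the sets. Within the sets of high and low Xist, r with the fibroblast score was 0.81 and 0.78 for Col1a2, 0.70 and 0.64 for Col1a1, and 0.76 and 0.76 for Col3a1.

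The Xist level was added to the fit with the 3 scores, after these values were seen and as a description. Since Xist has 2 separate levels, a slope on it mostly reflects the difference between the 2 sets. Then 11 of 36 collagens rose with the fibroblast score, against 2.47% of all tested genes, and none fell, against 1.49%. The 11 were among the first 12, and Col8a1 no longer passed (0.05, adjusted p = 0.122). The fibroblast slope was 0.16 ± 0.017 for Col1a1, 0.22 ± 0.012 for Col1a2 and 0.19 ± 0.013 for Col3a1. Per SD of the Xist level, with the scores held, the level of Col1a1 differed by -0.12 ± 0.013, that of Col1a2 by -0.07 ± 0.0091 and that of Col3a1 by -0.06 ± 0.0098. Col11a2 (0.03 ± 0.016, adjusted p = 0.234) and Col8a2 (0.02 ± 0.011, adjusted p = 0.395) did not pass on it.

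Collagen genes were then paired, in 18 pairs, mostly of chains that share a trimer or a fibril. Some pairs joined different basement membrane types, or a fibrillar chain with a basement membrane chain. Of the 18 pairs, 16 could be tested and 2 with Col4a4 could not. The highest r were those among the type I and III chains. Col1a1 and Col1a2 had r = 0.87 (rho = 0.88, permutation adjusted p = 1.45e-05 for r and 1.6e-05 for rho), and Col1a2 and Col3a1 had r = 0.88 (rho = 0.87). Col11a1 and Col11a2 had r = 0.85 (rho = 0.85), and Col5a1 and Col5a2 had 0.74 (rho = 0.73). Each of these 4 pairs held when the 2 libraries with the most extreme first gene were left out (r of 0.73 to 0.87) and within each block (lowest r 0.65). When the Meg3 and Miat score was regressed out, r was 0.83 for each of the type I and III pairs, but 0.32 for Col11a1 and Col11a2 and 0.36 for Col5a1 and Col5a2. Raw permutation p was 1e-05, the smallest that 100000 permutations can give, for r in 11 of the 16 pairs.

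Pairs from basement membranes and beaded filaments had lower r before any adjustment. Col4a1 and Col4a2, with start sites 77 bp apart on chromosome 16, had r = 0.48 (rho = 0.47, permutation adjusted p = 1.45e-05), and r ran from -0.17 to 0.63 within blocks. Col4a5 and Col4a6, with start sites 1264 bp apart on chromosome X, had r = 0.46 (rho = 0.41). Col6a1 and Col6a2, which lie 115492 bp apart by start site on chromosome 20, had r = 0.53 (rho = 0.54). After the same score was regressed out these 3 pairs had r of 0.46, 0.42 and 0.49, above the values of the type V and type XI pairs. Col6a1 and Col6a3, chains of the same trimer on different chromosomes, had r = -0.10 (rho = -0.07), which missed the threshold (permutation adjusted p = 0.0903). Col8a1 and Col8a2 had r = 0.45, Col9a2 and Col9a3 0.50, and Col9a1 and Col9a2 0.32.

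Neighbours in the genome and partners in a fibril did not always run together. Col3a1 and Col5a2, with start sites 223505 bp apart on chromosome 9, had r = -0.15 (rho = -0.18, permutation adjusted p = 0.00878 for r). Between types, Col1a2 correlated with Col18a1 at 0.28 and with Col4a1 at 0.18. Col4a1 and Col18a1 (r = 0.06, permutation adjusted p = 0.289) and Col15a1 and Col18a1 (r = 0.01, adjusted p = 0.806) missed the threshold. In all, 12 of 16 pairs passed with a positive r and 1 with a negative r. With the Meg3 and Miat score regressed out, Col3a1 and Col5a2 had r = 0.31 and Col9a1 and Col9a2 had -0.08, so these 2 pairs turned sign.

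**Figure D3:**
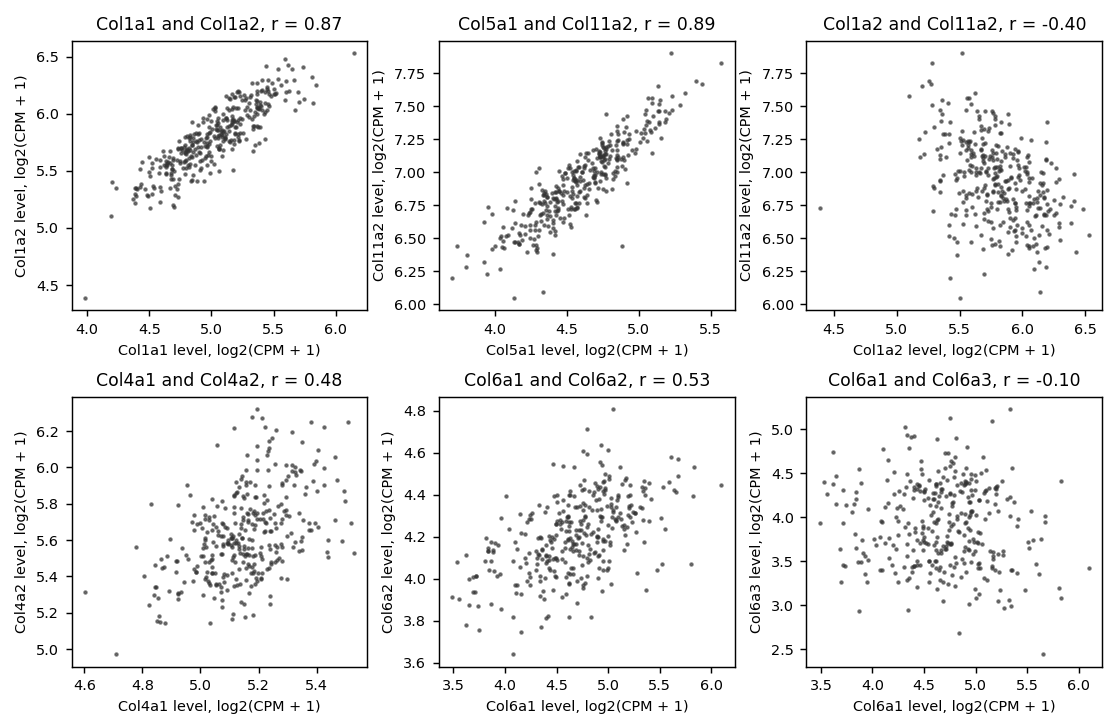
Levels, log2(CPM + 1), of 6 pairs of collagen genes, 1 point per library, with Pearson r above each panel. Col1a1 with Col1a2 and Col5a1 with Col11a2 form narrow bands (r = 0.87 and 0.89), Col1a2 with Col11a2 slopes down (r = -0.40), and Col6a1 with Col6a3 forms no band (r = -0.10).

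Across all pairs of the 36 tested collagens, the median r was 0.22, against 0.01 over all pairs of tested genes, and 421 of 630 pairs were positive. These values, and those in the rest of this paragraph, were chosen after they were seen and carry no test. By sign of r, the 11 fibrillar genes fell into 2 sets. Col1a1, Col1a2 and Col3a1 formed one. The other held Col2a1, Col5a1, Col5a2, Col5a3, Col11a1, Col11a2, Col24a1 and Col27a1. Col2a1 had r = 0.52 with Col11a2 and -0.23 with Col1a2. Col11a2 ran with Col5a1 at r = 0.89, with Col24a1 at 0.84 and with Col27a1 at 0.77, and against Col1a2 at -0.40. Of the 55 fibrillar pairs, 31 were positive and 24 negative. The fibril-associated Col16a1 and Col19a1 ran with the larger set: Col16a1 had r = 0.82 and Col19a1 r = 0.78 with Col11a2. Col8a2 (r = 0.63) and Col4a5 (r = 0.54) ran with Col1a2. With the Meg3 and Miat score regressed out, Col11a2 had r = 0.43 with Col5a1, 0.30 with Col24a1 and 0.16 with Col1a2. Col1a1 then had r = 0.83 with Col1a2. Between the 2 fibrillar sets r then ran from -0.01 to 0.41, so its sign no longer parted them. Col5a1 had r = 0.41 with Col1a2 and 0.19 with Col11a1. Without that adjustment, within the sets of high and low Xist, Col1a2 had r = -0.30 and -0.43 with Col11a2.

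**Figure D4:**
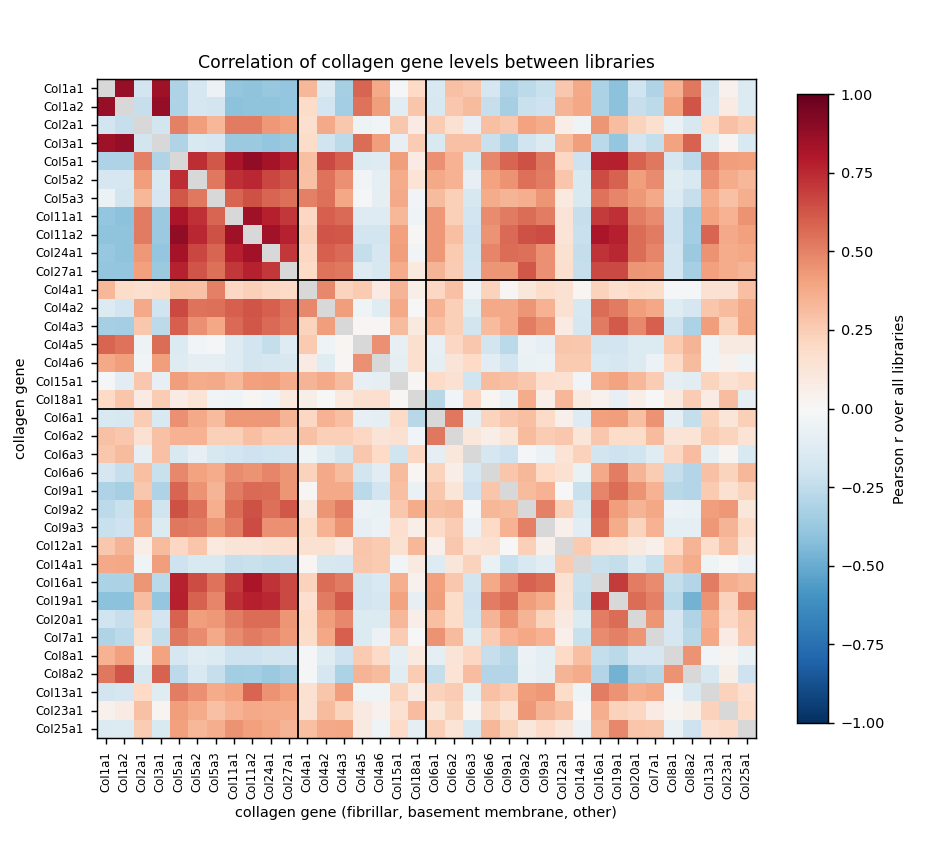
Pearson r between the levels of all 36 tested collagen genes over all libraries, ordered as fibrillar, basement membrane and other, with black lines between families and the diagonal left grey. Col1a1, Col1a2 and Col3a1 (upper left) are red among themselves and blue against Col11a1, Col11a2, Col24a1 and Col27a1.

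Shared extremes were counted without a correlation. Col1a1 and Col1a2, the type I chains, shared 3 of their 10 highest libraries, Col1a1 and Col3a1 shared 5, Col1a2 and Col3a1 shared 5, Col11a2 and Col5a1 shared 6, Col4a1 and Col4a2 shared 1, and Col1a2 and Col11a2 shared none. The number that unrelated genes would share was not computed, and no test was made of these counts. The last 2 counts are therefore not read as weak sharing or as opposition.

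Col6a1 and Col6a2, which lie near each other, tracked neighbours in the genome once scores were regressed out, several with negative r. After the 3 tissue scores and the Meg3 and Miat score were regressed out, the 10 non-collagen genes of largest absolute r were found for each collagen; this was done after earlier values were seen and is a description. For Col6a1 (chromosome 20, 11905690 to 11924111) all 10 lay within 2 Mb of its start site, where 0.366% of the tested genes lie. Of all 16683 tested genes, 0.527% had all 10 so placed. The closest was Lss, the lanosterol synthase of cholesterol synthesis, at r = -0.76 and 212540 bp away, followed by Zfp280b (-0.56), Pcnt (0.45) and Mif (0.40). Before any adjustment, Lss had r = -0.52 with Col6a1, and Col6a1 and Col6a2 each had 2 of 10 such genes within 2 Mb. None of the 36 collagens then had at least 3, against 5.33% of all tested genes. At least 1 was found for 6 of 36, against 16.7%.

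After the scores were regressed out, Col6a2 (chromosome 20, 12021182 to 12048932) had 6 of 10 such genes within 2 Mb. Lss (r = -0.53) and Dip2a (0.40) led them. Of all tested genes 3.24% had at least 6. Col6a3 (chromosome 9, 98809171 to 98887060) had 3 of 10: Ube2f (r = 0.44), Ndufa10 (-0.42) and Iqca1 (0.38). Col27a1 (chromosome 5, 81662822 to 81781502) had 4 of 10, among them Tnc (0.37), which encodes the matrix protein tenascin C, and Zfp618 (0.33). Col24a1 and Col9a3 had 3 each, as many as Col6a3, and Col6a6, the fourth tested type VI gene, had 1 (Acy1). In all, 6 of 36 collagens had at least 3, against 7.83% of all tested genes, and 12 of 36 had at least 1, against 20.6%. None of the fibroblast-following Col1a1, Col1a2 and Col3a1 had any. Spread relative to the trend and near neighbours did not always go together. Col6a1 (ratio 3.99) had 10 such genes and Col6a3 (3.43) had 3, but Col11a2 (3.74) had 0 and Col6a2 (1.44) had 6. No test was made of a link between them, and whether sequence variants differ between these rats was not analysed here.

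**Figure D5:**
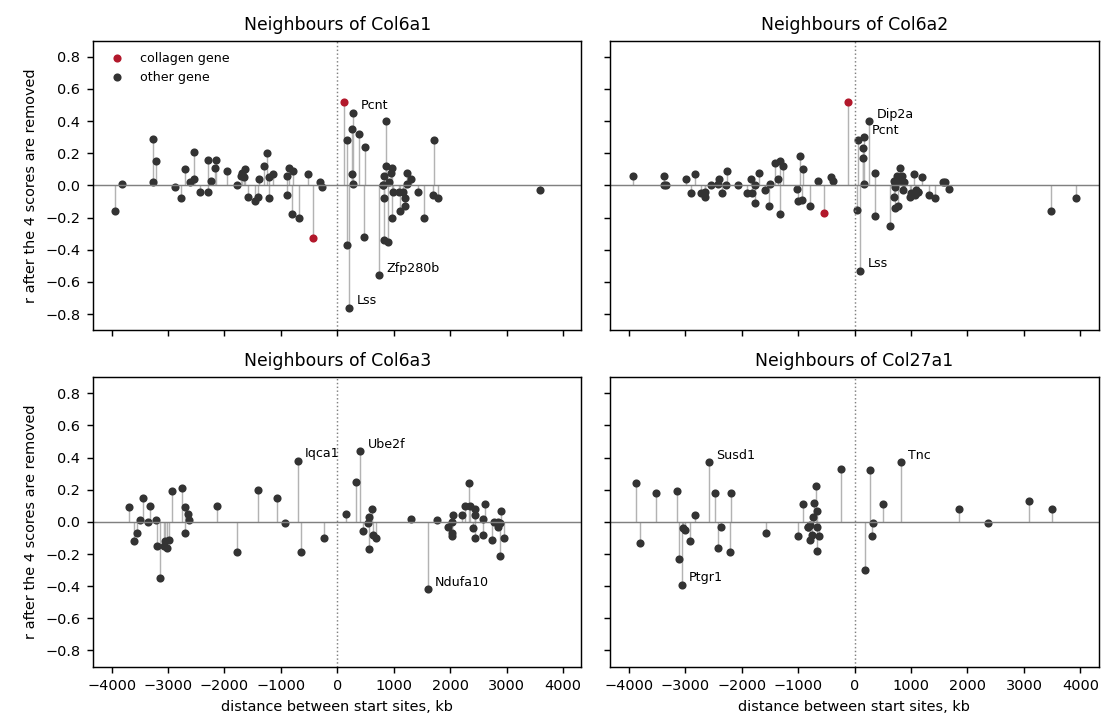
Pearson r, after 4 scores are removed, between Col6a1, Col6a2, Col6a3 or Col27a1 and each tested gene in a window around it on the same chromosome. The horizontal axis is the distance between start sites in kb, and genes farther away are not plotted. Red points are collagen genes, and the 3 other genes of largest absolute r are named. For Col6a1 the tall bars, Lss at -0.76 and Zfp280b at -0.56, lie close to the dotted line at 0.

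Genes that make, bind or cut collagen were taken from 5 lists, counted in the same fit. Of 20 enzymes and chaperones that hydroxylate, glycosylate, fold and export collagen, 5 rose with the fibroblast score, against 6.7% of all tested genes, and 1 fell, against 14.2%. Serpinh1, the collagen chaperone of the endoplasmic reticulum, had a slope of 0.06 ± 0.014, and P3h3, a prolyl hydroxylase family member, of -0.08 ± 0.017. Neither passed with the Meg3 and Miat score held (slopes of 0.04 and -0.01, adjusted p = 0.0679 and 0.62), and 1 of the 5 that rose still did. Of 13 genes of propeptide removal, assembly and crosslinking that were not in the score itself, 4 rose and 2 fell. Loxl1, a lysyl oxidase (0.08 ± 0.012), and Fn1, fibronectin (0.08 ± 0.016), rose, and Pxdn, which crosslinks type IV collagen (-0.06 ± 0.014), and Bmp1, which cleaves the C-terminal propeptide (-0.05 ± 0.011), fell. Once the Meg3 and Miat score was held, Loxl1 and Fn1 still rose, and Pxdn (-0.02, adjusted p = 0.433) and Bmp1 (0.00, adjusted p = 0.789) did not pass. Median slopes were 0.008 and 0.009 for these 2 lists, against -0.005 over all tested genes.

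Of 7 tested collagen receptors, 3 rose with the fibroblast score, against 6.7% of all tested genes: Mrc2, which takes up collagen for breakdown (0.09 ± 0.011), Ddr2, a receptor kinase for fibrillar collagen (0.08 ± 0.013), and Itgb1, the shared beta chain of the collagen integrins (0.04 ± 0.0047). With the endothelial and mural score 3 rose, against 6.95%: Itga1 (0.07 ± 0.01), Ddr1 (0.03 ± 0.007) and Itgb1 (0.03 ± 0.0039). All 6 of these calls held with the Meg3 and Miat score in the fit. Of 9 collagen-cleaving proteases and inhibitors, 7 rose with the fibroblast score, against 6.7% of all tested genes, among them Timp1 (0.09 ± 0.015), Timp3 (0.08 ± 0.0071), Ctsk (0.07 ± 0.011) and Mmp14 (0.07 ± 0.022). When the Meg3 and Miat score was held, 4 of the 7 rose, against 3.94%.

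Basement membrane partners followed the vascular score more often than the type IV genes did, a difference that was not tested. Of 14 laminin, nidogen and proteoglycan genes outside the score, 8 rose with the endothelial and mural score, against 6.95% of all tested genes, and none fell, and the median slope was 0.027, against 0.001 over all tested genes. Lamc3 (0.09 ± 0.01), Lama4 (0.06 ± 0.0078), Lama5 (0.06 ± 0.0098) and Hspg2, perlecan (0.05 ± 0.0084), were the steepest. On the fibroblast score 6 rose, led by Nid1 (0.12 ± 0.01), which joins laminin to type IV collagen, and 1 fell, Agrn (-0.06 ± 0.012), which did not pass with the Meg3 and Miat score held (0.00, adjusted p = 0.947). The 5 lists were drawn up with earlier results of these data known.

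The labels name no batch, so the identifier blocks were compared as the only grouping at hand. Between the 7 blocks, 3 of 36 collagens differed by limma's F-test, against 8.21% of all tested genes. They were Col7a1 (adjusted p = 0.000722), Col8a2 (0.00404) and Col23a1 (0.0368). Col7a1 averaged 2.16 ± 0.37 in the block of 18 libraries and 1.68 to 1.81 in the other 6 block means. Col8a2 averaged 3.27 in that block and 3.26 to 3.55 in the others, and Col23a1 averaged 3.90 there and 4.03 to 4.22 in the others. Without the 17 libraries of fewest detected genes, only Col7a1 differed, against 3.49% of all tested genes. With the 3 tissue scores as covariates only Col7a1 differed too, against 7.23%. With the Meg3 and Miat score as covariate 4 differed, against 10.8%, with Col5a1 added to the 3. Without brain 4, Col7a1 and Col8a2 differed, against 6.68%, and without brain 230, Col25a1 was added to the 3, against 8.28%.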

How the data were processed

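PolyA RNA of whole brain hemispheres was sequenced after TRIzol extraction and a directional NEBNext library preparation, per the labels' protocols. Kallisto is named as the quantifier, per the submitters' processing notes, with no version or settings. The deposited table has log2 values of estimated counts plus 1, read from the values themselves, and depth is not removed from them. Of 352 labelled samples, 342 have a column and form the single group (n = 342), and 10 are not analysed here; 335 are in the identifier blocks, and 14 libraries were renamed by the submitters.

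Libraries were scaled to CPM and log2(CPM + 1) was taken; in the shallowest library a level of 1 is 5.42 estimated counts. The 16683 genes averaging a level of 1 or more entered limma 3.58.1 in R 4.3.3, with a mean-variance trend and Benjamini-Hochberg adjustment over all of them for each slope or F-test, threshold 0.05. Scores are the mean z of markers, collagens left out, scaled to an SD of 1. Gaussian mixtures with up to 3 components were used to look for separate levels. Pairs used 100000 two-sided permutations. Scripts were tested on simulated data. Named by rule are all collagens, the 5 genes most alike for the top collagen of each family, and up to 4 members of each pathway list per score; others were chosen after their values were seen. The collagen genes, lists and pairs were chosen with earlier results of these data known. Gene coordinates come from RefSeq on GRCr8, matched by symbol for all 44 collagens, with the start site in the table at an end of each gene.

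Alternatives were another pseudocount, scaling, level minimum and set of libraries, each score alone, further covariates and block terms. The Meg3 and Miat score, the Xist level (over 5 in 177 libraries, under 5 in 165) and the exclusion of brain 4 or brain 230 were added after seeing the data.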

Additional observations from a re-analysis of the deposited data

How the results depend on the processing

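The 12 collagens higher with the fibroblast score, the 25 higher with the Meg3 and Miat score and the 12 positive pairs stayed within 1.5 times their number under every alternative run, but the share of all tested genes did not: for the fibroblast score it was 6.7% beside 12 collagens in the report, 24.5% beside 12 with each score alone and 56.7% beside 18 of 36 on the values as deposited, where the share of collagens was below that of all tested genes. Most changes came from the log2 values as deposited, in which depth is not removed. There, collagens lower with the fibroblast score numbered 0 (0.264% of all tested genes). With the endothelial and mural score 29 were higher (96.2%) and 4 lower (0.27%). Lower with the choroid plexus score were 12 (4.39%), and lower with the Meg3 and Miat score 0 (0.048%). Between blocks 13 differed (36%), no pair passed as negative, 0 had an SD of 2 times the trend and 2 fell into separate levels. Slopes that turned sign there were, on the fibroblast score, Col11a1 (0.03), Col11a2 (0.10), Col24a1 (0.04) and Col4a3 (0.01), and on the endothelial and mural score, Col5a1 (0.29), Col5a2 (0.19), Col11a1 (0.29), Col11a2 (0.31), Col24a1 (0.37), Col9a2 (0.21) and Col23a1 (0.15). On the Meg3 and Miat score they were Col1a2 (0.16), Col1a1 (0.14) and Col3a1 (0.16), and Col3a1 with Col5a2 had r = 0.68. With the Meg3 and Miat score added, 0 were lower with the fibroblast score (3.03% of all tested genes). With the endothelial and mural score 4 were higher (11.4%) and 5 lower (4.09%). With the choroid plexus score 6 were higher (9.66%) and 2 lower (5.98%). Signs turned for Col11a1 (0.01), Col11a2 (0.03), Col24a1 (0.02) and Col4a3 (0.01) on the fibroblast score and for Col24a1 (0.02) and Col11a2 (0.00) on the choroid plexus score. With that score regressed out, 8 collagens had an SD of 2 times the trend, no pair (0) passed as negative, Col3a1 with Col5a2 had r = 0.31 and Col9a1 with Col9a2 -0.08. With each score alone, 22 collagens were lower with the fibroblast score (36.3% of all tested genes), 8 higher (17.1%) and 17 lower (20.5%) with the endothelial and mural score, where Col8a2 turned to 0.03, and 10 higher with the choroid plexus score (27%). With further cell type scores and library total, 0 were lower with the fibroblast score (0.977%), and Col11a2 (0.01) and Col24a1 (0.02) turned sign. A minimum level of 3 left 1 higher with the endothelial and mural score (8.19%), because Col7a1, with a mean level of 1.75, was then not tested. With the Xist level added, 0 were lower with the fibroblast score (1.49%). Without brain 230, 10 were (18.6%). Col11a2 also lost its fibroblast call without the libraries of fewest genes (adjusted p = 0.0661), without renamed libraries (0.0523) and with no level minimum (0.0648), and Col4a3 with a pseudocount of 0.1 (0.0545), without the libraries of fewest genes (0.0741) and with no level minimum (0.0716). Between blocks, 1 differed without the libraries of fewest genes (3.49%) and 1 with the 3 scores as covariates (7.23%). With the 3 scores regressed out, Col3a1 with Col5a2 had r = 0.04 and no pair (0) passed as negative. The cause was not tested in any of these. No paired analysis was possible because all libraries form a single group. Depth limits the 8 collagens under a mean level of 1, whose median estimated counts per library were between 4 and 19.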

Other observations

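Col18a1 ran with cerebellar neuron markers. Its most alike genes, chosen after their values were seen, were Grid2ip (r = 0.61) and Cacna1g (0.59), both known from cerebellar Purkinje cells, and its r with a score of 8 cerebellar neuron markers was 0.49, the highest of the 36 tested collagens. The same r was 0.28 for Col6a3 and -0.44 for Col19a1. The cerebellar markers summed to 159.3 CPM in the lowest library and 988.8 CPM in the median library, and Col18a1 was lowest in brain 4. Whether the dissection of the cerebellum moved with Col18a1 was not tested.

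Col8a2, a network-forming collagen, was most alike in pattern to Slc47a1 (r = 0.69), Igf2 (0.64), Sfrp1 (0.62), Cdh1 (0.61) and Clic6 (0.60), which include markers of both meninges and choroid plexus. Col1a2 was most alike to Igf2 (0.85), Bgn (0.82), Aebp1 (0.81), Igfbp2 (0.79) and Fmod (0.76), of which Igf2, Bgn and Fmod are in the fibroblast score.

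For the cartilage collagens, r with the cartilage and bone score was 0.12 for Col2a1, 0.02 for Col11a2 and -0.04 to 0.06 for the 3 type IX genes. That score holds Sox9, which is also an astrocyte marker.

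Extremes gathered in a few hemispheres. Brain 230 was the lowest library for 8 of 36 collagens and had a fibroblast marker sum of 177.8 CPM, and brain 53 was the lowest for 6. A further library was the highest for 6 collagens, with a Meg3 and Miat score of 2.92 and a fibroblast score of -2.53.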
